A study of Homo sapiens with 6 samples.

Results

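This report describes the metallothioneins MT1E, MT1F, MT1G, MT1H, MT1M, MT1X, MT2A and MT3, the zinc-sensing transcription factor MTF1 and the zinc exporter SLC30A1 in MDA-MB-231 cells given the histone deacetylase (HDAC) inhibitor SAHA. Members were all probe sets whose platform gene symbol is exactly 1 of these 10 names, which gave 22 of the 49293 probe sets that are not array controls. MDA-MB-231 is an established triple-negative human breast cancer line. The 3 SAHA arrays are from cells kept for 8 h with 5 µM SAHA (vorinostat), and the 3 DMSO arrays from cells kept for 8 h with the solvent DMSO. Both groups were grown in DMEM/F12 medium with serum, and no other agent or genetic change is named. Affymetrix PrimeView arrays were hybridized with RNA amplified from the 3' end. No label states that the replicates are separate cultures. The p-values may thus reflect technical spread alone. Values come from bulk RNA, so a change in every cell and a change in some of the cells cannot be told apart.

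Metallothioneins are small proteins in which clustered cysteines bind zinc and copper, and also toxic metals such as cadmium. MTF1 binds zinc through its zinc fingers, enters the nucleus and binds metal response elements before metallothionein genes and before SLC30A1, whose product ZnT1 carries zinc out of the cell. The MT1 and MT2 genes are made in most tissues, while MT3 is best known from the brain. Their genes lie side by side on chromosome 16.

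The promoters of 4 members are shown because they carry the binding motif of MTF1 in very different numbers. A promoter was found for 5 of the 10 members (MT1H, MT1X, MT2A, MTF1 and SLC30A1) in the RefSeq table of build GRCh38.p14, and the 250 bases before the gene start are given, 5′ to 3′. Capitals mark the core of the metal response element, searched as TGCACNC or TGCGCNC on both strands. The windows are chr16:56682220-56682469 (plus strand) for MT1X, chr16:56608334-56608583 (plus strand) for MT2A, chr16:56669564-56669813 (plus strand) for MT1H and chr1:211579162-211579411 (minus strand) for SLC30A1.
MT1X: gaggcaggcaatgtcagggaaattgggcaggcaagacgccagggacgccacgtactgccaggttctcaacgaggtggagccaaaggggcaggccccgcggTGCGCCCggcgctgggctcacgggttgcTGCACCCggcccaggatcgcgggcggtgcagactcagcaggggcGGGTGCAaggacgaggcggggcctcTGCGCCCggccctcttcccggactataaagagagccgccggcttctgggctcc
MT2A: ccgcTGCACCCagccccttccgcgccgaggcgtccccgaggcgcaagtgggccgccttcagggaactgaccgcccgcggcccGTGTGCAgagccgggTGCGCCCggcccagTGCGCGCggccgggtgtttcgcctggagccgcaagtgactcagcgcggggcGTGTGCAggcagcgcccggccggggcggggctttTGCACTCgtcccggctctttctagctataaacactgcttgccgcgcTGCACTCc
MT1H: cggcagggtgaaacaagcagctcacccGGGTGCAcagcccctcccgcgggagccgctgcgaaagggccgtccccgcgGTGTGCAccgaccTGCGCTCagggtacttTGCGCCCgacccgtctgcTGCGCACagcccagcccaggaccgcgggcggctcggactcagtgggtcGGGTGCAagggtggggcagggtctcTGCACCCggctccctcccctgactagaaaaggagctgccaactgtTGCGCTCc
SLC30A1: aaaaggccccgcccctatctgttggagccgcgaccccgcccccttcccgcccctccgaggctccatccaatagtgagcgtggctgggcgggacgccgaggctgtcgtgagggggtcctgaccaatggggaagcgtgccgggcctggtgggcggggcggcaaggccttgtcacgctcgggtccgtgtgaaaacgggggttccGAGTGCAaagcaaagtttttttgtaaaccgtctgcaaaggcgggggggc

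MT1H held the core in 8 separate places, MT2A in 7, MT1X in 4 and SLC30A1 in 1, and MTF1 itself in 0. Of all 35114 promoters of the same length in the table, 24.8% held at least 1, 0.208% (73 promoters) held 4 or more and 0.0228% (8 promoters) held 7 or more. The motif is rich in G and C, as these windows are: MT2A was at 73.2% G and C, MT1H at 70.4%, MT1X and MTF1 at 70.0% and SLC30A1 at 66.4%. Among the 11386 promoters with at least 65% G and C, 40.5% held at least 1 core and 0.509% held 4 or more. The GC box GGGCGG, on either strand, lay in 5 separate places before SLC30A1, in 2 before MT1X and MT2A, and in 1 before MT1H and MTF1, and 42.6% of all promoters held it. The TATA box TATAAA lay in 1 place before MT1X and MT2A, and 10.7% of all promoters held it. In MT1X 1 metal response element core overlapped a GC box, and in the other windows shown 0 did. A match is a run of letters, not a measured binding site.

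With SAHA the metallothionein probe sets that name 1 member were higher or did not pass the test, and the measured rises differed in size. That difference did not pass its own test, an exact permutation test whose p cannot go below 0.1 here. MT1X rose by more than 3-fold in both of its probe sets. MT1F did so in its brighter probe set and rose 1.97-fold in its other, both of the kind shared by similar transcripts. MT3 rose by about 2-fold in its brighter probe set, and MT1G, MT1E and MT2A rose by less. The call of MT2A depended on the choice of arrays and scaling given beside its values. SLC30A1 rose 2.83-fold in 1 probe set and did not pass the test in its other, and MTF1 rose by up to 1.60-fold. No probe set that names MT1H or MT1M alone passed the test, and 1 that names MT1M together with other loci was lower. In limma's test, adjusted by Benjamini-Hochberg over all 49293 probe sets, 15 of the 22 member probe sets were higher and 0 were lower (0 were lower at an unadjusted p under 0.05 as well). Over all probe sets 46.4% were called in either direction, 22.2% higher and 24.1% lower. The 3 SAHA values lay above the 3 DMSO values in 17 of the 22, where 25.9% of all probe sets did. A call together with a rise of at least 2-fold was found in 5 of the 22, against 4.96% of all probe sets. The median log2 fold change was 0.39 over the members and -0.02 over all probe sets.

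**Figure D1:**
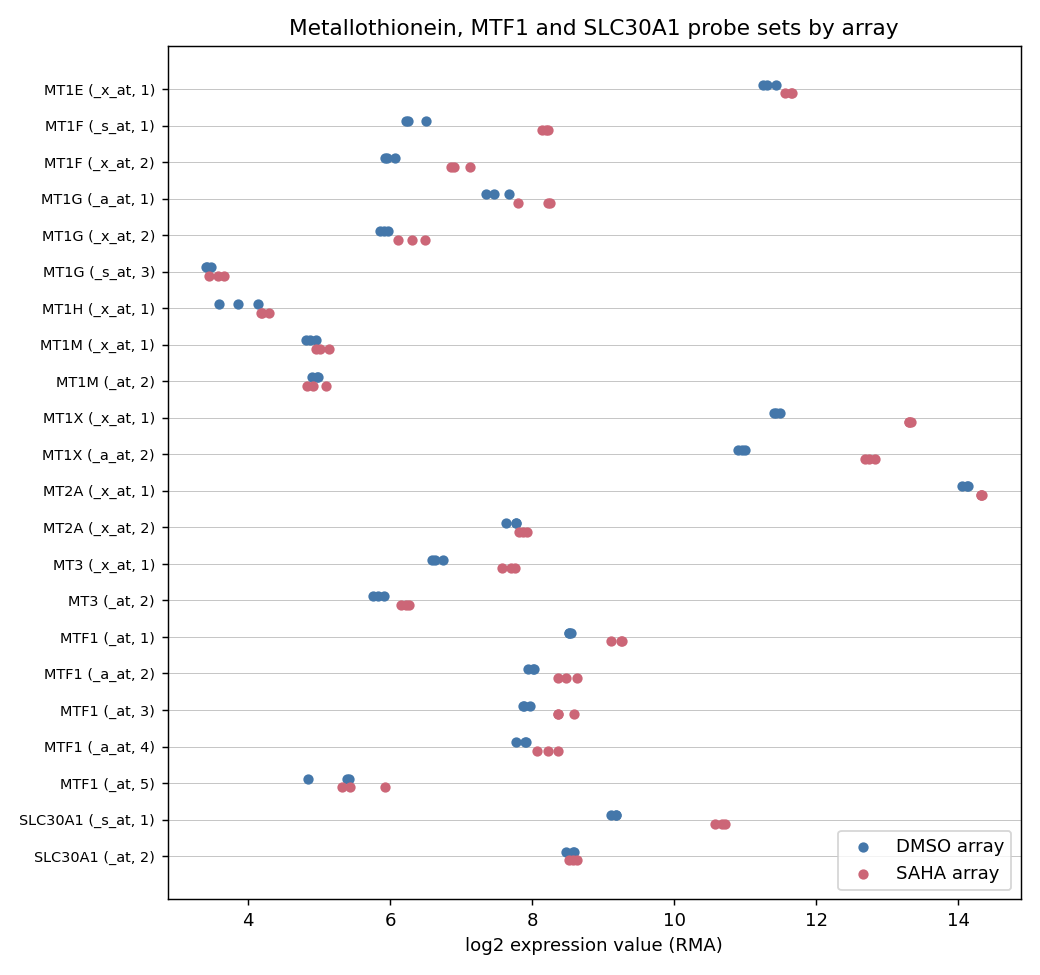
Log2 expression values of the 22 member probe sets (rows, with the name's ending and the order by mean within a gene) on 3 DMSO and 3 SAHA arrays, 1 point per array. The groups stand far apart for MT1X, the first MT1F and the first SLC30A1 probe set. They overlap for both MT1M probe sets, for SLC30A1's second and for the dimmest probe sets of MT1G and MTF1.

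The ending of a probe set's name says how far its probes are its own. Names ending in _x_at or _s_at mark probes that also match similar transcripts, and _a_at marks probes shared by transcripts of 1 gene. Metallothionein mRNAs are short and alike, and 11 of the 15 metallothionein probe sets end in _x_at or _s_at. Of those 11, 7 were called higher, and of the other 4, 3 were. A rise in 1 transcript can therefore be read by the probe set of another, and the share of each value that comes from similar transcripts was not tested.

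MT1X, an MT1 isoform, had the largest change. Its brighter probe set, 11757581_x_at, was at log2 values of 11.41, 11.49 and 11.44 with DMSO, and of 13.31, 13.30 and 13.33 with SAHA. The groups lay far apart and the SAHA arrays were nearly equal. The rise was 1.87 ± 0.06 on the log2 scale (limma's SE, 3.64-fold, adjusted p = 3.75e-07). The other probe set, 11726385_a_at, is not of the kind shared between genes. It stood at 10.90, 11.00 and 10.96 in DMSO and at 12.68, 12.83 and 12.74 in SAHA, a rise of 1.80 ± 0.07 (limma's adjusted p = 6.72e-07). The 2 probe sets thus gave like changes.

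MT1F, another MT1 isoform, was at 6.51, 6.23 and 6.26 in DMSO and at 8.19, 8.14 and 8.23 in SAHA arrays in 11721877_s_at. All SAHA values exceeded all DMSO values, and the rise was 1.85 ± 0.09 (3.62-fold, limma's adjusted p = 1.69e-06). In 11721878_x_at the values were 5.93, 5.96 and 6.06 in DMSO and 6.85, 6.90 and 7.12 in SAHA, a rise of 0.97 ± 0.09 (limma's adjusted p = 3.97e-05). The probe sets agreed in direction and differed in size, and both are of the kind shared by similar transcripts.

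MT1G had 3 probe sets, of which 2 rose. In 11717385_a_at the values were 7.67, 7.34 and 7.46 with DMSO, and 7.80, 8.25 and 8.22 with SAHA. SAHA replicate 1 lay just above the highest DMSO array, and the rise was 0.60 ± 0.14 (1.51-fold, limma's adjusted p = 0.00735). The dimmer 11717387_x_at rose by 0.39 ± 0.10 (limma's adjusted p = 0.0119), again with SAHA replicate 1 lowest of its group at 6.11. The dimmest, 11717386_s_at, overlapped between groups at 0.12 ± 0.07 (limma's adjusted p = 0.215).

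MT1E was measured by 1 probe set, 11716413_x_at, and was bright in both groups. It was at 11.43, 11.26 and 11.31 in DMSO and 11.56, 11.66 and 11.64 in SAHA arrays. The groups did not overlap, and the rise of 0.29 ± 0.07 (1.22-fold, limma's adjusted p = 0.00961) was small beside that of MT1X.

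MT2A, the main MT2 isoform of human cells, was at the top of the arrays' scale. Its brighter probe set, 11753900_x_at, was at 14.14, 14.06 and 14.12 in the DMSO arrays, where it ranked 4, 5 and 4 among the 49293 probe sets. In the SAHA arrays it was at 14.32, 14.33 and 14.33, the highest value of each array. RMA gives all arrays nearly the same highest value, here from 14.18 to 14.33. The part of this limit in the size of the MT2A difference was not tested. The measured difference was 0.22 ± 0.06 (1.16-fold, limma's adjusted p = 0.0136). It did not pass without DMSO replicate 2 (0.20, limma's adjusted p = 0.0517) or with quantile normalization once more (0.14, adjusted p = 0.0627). The second probe set, 11758729_x_at, was in the middle of the scale, at 7.77, 7.63 and 7.77 in DMSO and 7.87, 7.93 and 7.81 in SAHA. Its groups did not overlap either, and its difference of 0.15 ± 0.07 had a limma adjusted p = 0.122.

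MT3, the isoform first described in brain, was higher in both of its probe sets. 11753872_x_at was at 6.75, 6.59 and 6.63 in DMSO and at 7.70, 7.75 and 7.58 in SAHA arrays, a rise of 1.02 ± 0.07 (2.03-fold, limma's adjusted p = 1.38e-05). The probe set 11722608_at, whose name marks no shared probes, gave 5.83, 5.75 and 5.91 against 6.26, 6.22 and 6.15. Its rise of 0.38 ± 0.07 (limma's adjusted p = 0.00190) was smaller, with no overlap.

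MT1H and MT1M were dim and did not pass the test. MT1H (11731857_x_at) was at 3.86, 4.14 and 3.59 in DMSO and 4.29, 4.19 and 4.19 in SAHA arrays, a difference of 0.36 ± 0.13 (limma's adjusted p = 0.0518). The groups did not overlap, with DMSO replicate 2 just under the SAHA arrays. Without that array the difference passed, at 0.50 (limma's adjusted p = 0.00483). Without DMSO replicate 3 it was 0.22 (adjusted p = 0.118), and it did not pass without any of the other 4 arrays either. In 11728397_at MT1M was at 4.98, 4.98 and 4.89 with DMSO and at 4.83, 4.92 and 5.10 with SAHA, and the 95% interval of its difference ran from -0.19 to 0.19. Its other probe set, 11728398_x_at, gave 0.15 ± 0.07 (limma's adjusted p = 0.148). A further probe set ending in _s_at names MT1M together with MT1JP and MT1P3, and is in none of the member counts. It was at 5.06, 4.85 and 5.01 with DMSO and at 4.19, 4.69 and 4.56 with SAHA. All SAHA values lay below all DMSO values, a difference of -0.50 ± 0.13 (limma's adjusted p = 0.0137), and which of the 3 loci it reads was not tested. On these arrays background controls that match no transcript rose with their content of G and C, from 2.98 at 12 of 25 bases to 5.23 at 18 of 25. The values of MT1H, MT1M and this shared probe set lie within that range, so a level there is not evidence of expression. Controls richer still in G and C read higher, at 5.84 for 20 of 25 bases and 6.65 for 21 of 25. With DMSO the means of MT1F (6.33 and 5.98), MT3's 11722608_at (5.83) and MT1G's 11717387_x_at (5.91) were below 6.65. MT3's brighter 11753872_x_at was level with that control, at a mean of 6.65, with DMSO replicates 2 and 3 below it (6.59 and 6.63). MT1G's 11717386_s_at (3.44) and MTF1's 11722391_at (5.22) lay between 2.98 and 5.23 with DMSO. The base content of the members' probes was not analysed.

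**Figure D2:**
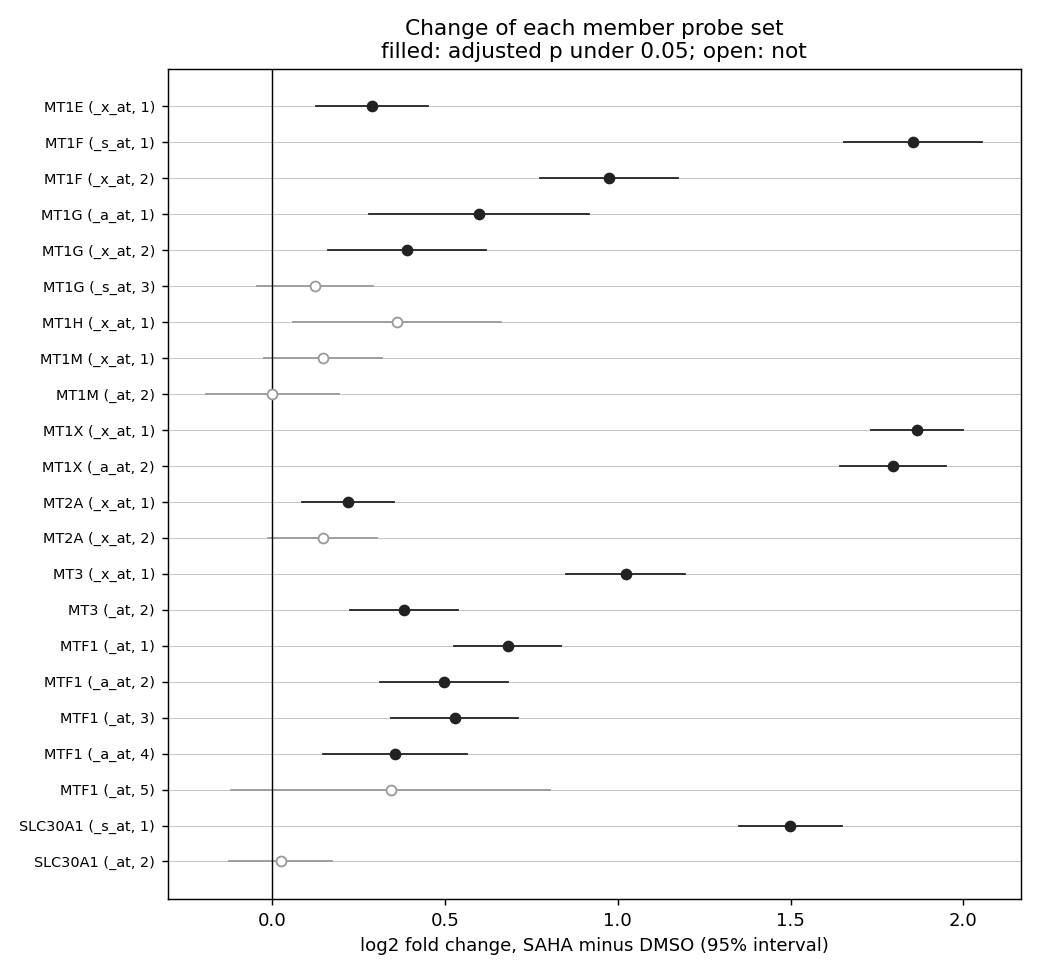
Log2 fold change of SAHA over DMSO for each of the 22 member probe sets, with limma's 95% interval, in the row order of the plot of values. Filled points have an adjusted p under 0.05 over all probe sets; the 15 filled points all lie above 0, from 0.22 (MT2A) to 1.87 (MT1X).

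Whether the isoforms moved by different amounts was tested on the difference itself, within each array and for the brightest probe set of each gene. MT1X was the reference of all 7 comparisons and had the largest change of the members in these same data. That the differences came out positive was thus fixed by the choice of reference. MT1X rose by 1.58 ± 0.08 more than MT1E on the log2 scale, by 1.27 ± 0.19 more than MT1G and by 0.84 ± 0.09 more than MT3 (SE, n = 3 per group). In these 3 comparisons the arrays of the groups did not overlap, and each had an exact permutation p = 0.1 (two-sided), which is as low as 3 arrays against 3 can go (0.117 after Benjamini-Hochberg adjustment over all 7 that were computed). The comparisons with MT2A, at the top of the arrays' scale, and with MT1H and MT1M, within the range of background controls, are not read as unequal changes. Against MT1F the difference was 0.01 ± 0.11 (exact permutation p = 1). That likeness rests on the probe set used for MT1F: with the mean of each gene's probe sets MT1X rose by 0.42 more than MT1F, and with the second brightest by 0.82 more. The probe sets of MT3 and MT1G not used here changed by other amounts, 0.38 for MT3 and 0.39 and 0.12 for MT1G. With DMSO the MT3 probe set used was at 6.65, level with background controls of 21 of 25 bases G or C.

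MTF1, the zinc sensor that switches on the metallothionein genes, rose in 4 of its 5 probe sets. The brightest, 11722389_at, was at 8.52, 8.55 and 8.52 in DMSO and at 9.27, 9.26 and 9.11 in SAHA arrays, a rise of 0.68 ± 0.07 (1.60-fold, limma's adjusted p = 6.88e-05). The next 3 gave rises of 0.50 ± 0.08, 0.53 ± 0.08 and 0.36 ± 0.09, each without overlap between groups. The dimmest, 11722391_at, overlapped at 0.34 ± 0.20 (limma's adjusted p = 0.208), with DMSO values from 4.84 to 5.42. Its value was 0.15 without DMSO replicate 3 and 0.16 without SAHA replicate 2. None of the 5 ends in _x_at or _s_at, the endings that mark probes shared with similar transcripts.

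SLC30A1, the exporter ZnT1 of the plasma membrane, differed between its 2 probe sets. 11758948_s_at was at 9.11, 9.18 and 9.18 in DMSO and at 10.71, 10.57 and 10.68 in SAHA arrays, a rise of 1.50 ± 0.06 (2.83-fold, limma's adjusted p = 1.23e-06). 11726006_at was at 8.48, 8.59 and 8.57 in DMSO and 8.63, 8.57 and 8.52 in SAHA arrays. These overlapped, and the difference was 0.02 ± 0.06 with a 95% interval from -0.12 to 0.17 (limma's adjusted p = 0.794). Both probe sets were well above the dim end of the scale. Which stretch of the transcript each reads is not analysed here, and the rise of SLC30A1 therefore rests on 1 probe set, of the kind whose probes can match other transcripts.

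Some array checks moved with the groups. For ACTB, the 3' minus the 5' probe set reads RNA integrity and amplification. It stood at 0.89 ± 0.16 with DMSO against 0.61 ± 0.06 with SAHA (SD, n = 3, exact permutation p = 0.1). The same measure for GAPDH moved the other way, at 0.03 ± 0.02 with DMSO and 0.06 ± 0.02 with SAHA (SD, n = 3, exact permutation p = 0.1). The mean of 65 ribosomal protein genes was 13.29 with DMSO and 13.15 with SAHA (exact permutation p = 0.1). With the ACTB difference as a covariate 10 of the 22 member probe sets were called: both of MT1X, both of MT1F, the brighter of MT3, 4 of MTF1 and 1 of SLC30A1. Over all 49293 probe sets 15995 were then called, 7486 of them higher. The calls of MT1E, MT2A, both MT1G probe sets and the dimmer MT3 probe set were lost. Their values were then 0.36 for MT1E, 0.23 for MT2A, 0.64 and 0.32 for MT1G and 0.33 for MT3, close to those without the covariate. CDKN1A, which encodes p21 and is the usual marker of HDAC inhibition, rose by 1.91 ± 0.05. Of the markers expected to be high in the line, vimentin (VIM) was at 13.96 in DMSO and was not called. CD44 (-0.57), CAV1 (-0.71), AXL (-0.38) and MSN (-0.27) were bright as well and were called lower with SAHA. Of the genes expected to be low, PGR at 3.29 and CDH1 at 4.20 in DMSO were within the range of background controls. ESR1 was at 5.98 in DMSO and was not called. Also expected to be low, ERBB3 rose by 2.85 on the log2 scale from a DMSO level of 4.65, within that range, so its size is not an exact fold. GATA3 fell by 1.23 from 6.67. Among 8 markers of leukocytes and fibroblasts 2 were higher (CD14 by 1.01, COL1A1 by 0.50) and 1 lower (CD3E). With DMSO, CD79A (6.52) and COL1A1 (5.27) were above the 5.23 of background controls with 18 of 25 bases G or C. CD3E (4.88), CD14 (3.96), COL3A1 (3.76), PTPRC (3.33), DCN (3.30) and LUM (2.83) were below it. The size of the CD14 rise is thus not an exact fold either.

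The neighbours of the cluster are a comparison that the choice of members did not use. In the RefSeq order of genes the cluster runs from MT4 and MT3 through MT2A, MT1E and MT1M to MT1F, MT1G, MT1H and MT1X, with 0 other measured genes inside it. For the counts from here on each gene was taken by its probe set with the highest mean, and p-values were adjusted over 18132 genes, of which 48.3% were called, 24.6% higher and 23.8% lower. Of the 10 members 8 were higher and 0 lower (0 lower at an unadjusted p under 0.05 as well), and of the 10 nearest measured genes on each side, 7 were higher and 3 lower in limma's test. Next to MT4, BBS2, of the ciliary BBSome, rose by 0.51 ± 0.05. Next to MT1X, NUP93, of the nuclear pore, rose by 0.45 ± 0.05. Farther out HERPUD1, of protein degradation at the endoplasmic reticulum, rose by 1.01 ± 0.06. LPCAT2, a lysophospholipid acyltransferase, rose by 1.18 ± 0.08 and the proteolipid PLLP by 1.84 ± 0.11. PLLP's DMSO values of 5.18, 5.46 and 5.07 lay around the 5.23 of background controls with 18 of 25 bases G or C. The size of its rise is thus not an exact fold. The median log2 fold change of the 20 neighbours was 0.09, and of the 8 metallothionein members 0.48.

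**Figure D3:**
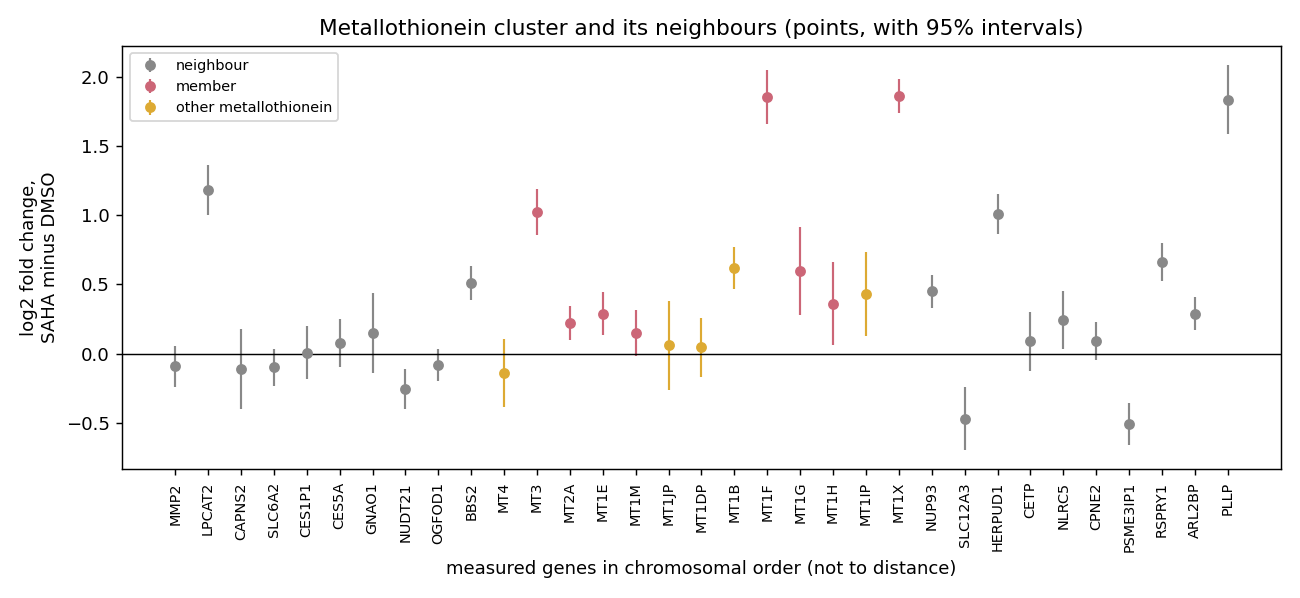
Gene-level log2 fold changes (points, with limma's 95% intervals) of measured genes in chromosomal order, without distances. MT1F and MT1X stand at 1.85 and 1.87, the members between MT2A and MT1M under 0.30, and the neighbours from -0.51 to 1.84.

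Of 11 other metallothionein genes and pseudogenes 5 were measured, and of these 2 were higher and 0 lower in limma's test (0 lower at an unadjusted p under 0.05 as well), with a median log2 fold change of 0.06. MT1B, a rarely expressed MT1 gene, was at 5.92, 5.99 and 5.97 in DMSO and 6.69, 6.52 and 6.53 in SAHA arrays, a rise of 0.62 ± 0.06 (limma's adjusted p = 0.000105). These DMSO values too are below the 6.65 of background controls with 21 of 25 bases G or C. The pseudogene MT1IP was higher by 0.43 ± 0.13 (limma's adjusted p = 0.0269) in an _s_at probe set whose groups overlapped, a call lost when any array but DMSO replicate 2 or SAHA replicate 1 was left out (0.35 to 0.42). Its second brightest probe set gave -0.03. MT4, of stratified epithelium, was at -0.14 ± 0.11 (limma's adjusted p = 0.337).

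Zinc transporters moved in both directions. Of 9 other genes of the SLC30 family, listed as zinc exporters by family name, 4 were higher and 1 lower, with a median of 0.07. Of the 4, SLC30A10 was dim, at 3.80 in DMSO, and was called in 1 of its 2 probe sets, with the other at -0.22. SLC30A9 rose by 0.40 ± 0.05 and SLC30A4 by 0.54 ± 0.11, and SLC30A6, of the secretory pathway, fell by 0.28 ± 0.05, a call lost after centring on poly-A spike-ins (-0.10) and with the ACTB covariate. SLC30A4 was dim, at a log2 value of 3.74 in DMSO, and its call was lost in its second probe set (0.30) and with the ACTB covariate. Of 14 zinc importers 3 were higher and 5 lower, with a median of -0.01. SLC39A10, an importer of the plasma membrane whose gene is reported to be repressed by MTF1, was at 9.76, 9.72 and 9.76 in DMSO and at 8.77, 8.68 and 8.62 in SAHA arrays. It fell by 1.06 ± 0.06 (limma's adjusted p = 3.58e-06), with all 3 of its probe sets called lower. SLC39A13, an importer of the secretory pathway, fell by 0.84 ± 0.06, while SLC39A6 rose by 0.59 ± 0.06, SLC39A3 by 0.47 ± 0.09 and SLC39A9 by 0.43 ± 0.06.

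Among 14 copper handling genes 7 were higher and 3 lower, with a median of 0.11. ATP7A, a copper pump, was at 5.42, 5.37 and 5.81 in DMSO and at 8.01, 7.91 and 8.01 in SAHA arrays. It rose by 2.45 ± 0.12 (limma's adjusted p = 1.81e-06), with both of its probe sets higher. The related pump ATP7B rose by 2.48 ± 0.07 in 1 of its 3 probe sets, and its second brightest gave 0.12. CCS, which hands copper to superoxide dismutase, rose by 1.03 ± 0.06. SCO1, a copper chaperone of cytochrome oxidase assembly, fell by 1.01 ± 0.08 and the metalloreductase STEAP3 by 0.58 ± 0.06.

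Genes reported elsewhere as MTF1 targets did not move one way. Of the 8, 5 were higher and 3 lower, with a median of 0.34. SLC39A10, 1 of the 3 lower, is the gene named above as reported to be repressed by MTF1. Whether MTF1 had a part in its fall was not tested. SLC39A10 and SLC30A10 are also counted among the zinc transporters. SLC40A1, the iron exporter ferroportin, rose by 1.79 ± 0.13, from 4.92 ± 0.28 to 6.70 ± 0.10 (SD, n = 3). TXNRD2, the mitochondrial thioredoxin reductase, fell by 0.87 ± 0.06 and SELENOH, a nuclear selenoprotein, by 0.26 ± 0.06, a call lost after centring on ribosomal protein genes (-0.13) or poly-A spike-ins (-0.08) and with the ACTB covariate.

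Of 13 measured genes of metal and oxidative stress 6 were higher and 5 lower, with a median of 0.04. The cochaperone DNAJB1 rose by 2.12 ± 0.05 and HMOX1, the haem oxygenase that metals induce, by 1.68 ± 0.07. KEAP1, the inhibitor of NRF2, fell by 2.28 ± 0.06 and the cystine carrier SLC7A11 fell by 2.02 ± 0.11. NFE2L2, which encodes NRF2, fell by 0.41 ± 0.06, a call lost after centring on poly-A spike-ins (-0.23). Metallothionein genes also respond to glucocorticoids. Of the glucocorticoid receptor and 8 of its targets 7 were higher and 1 lower, with a median of 0.64. The phosphatase gene DUSP1 rose by 2.35 ± 0.08, KLF9, a transcription factor, by 2.80 ± 0.14 and the clock gene PER1 by 1.39 ± 0.07, while the receptor gene NR3C1 itself fell by 0.87 ± 0.06 with all 10 of its probe sets called lower. PER1 was called in 1 of its 3 probe sets, and its second brightest gave -0.17. KLF9 was called higher in 2 of 4. With DMSO the levels of ATP7B (5.03), SLC40A1 (4.92), KLF9 (4.89) and PER1 (5.01) lay within the range of the background controls named above, so the sizes given for their rises are not exact folds. ATP7A (5.53) was below the 5.84 of controls with 20 of 25 bases G or C, so the size of its rise may not be exact either.

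**Figure D4:**
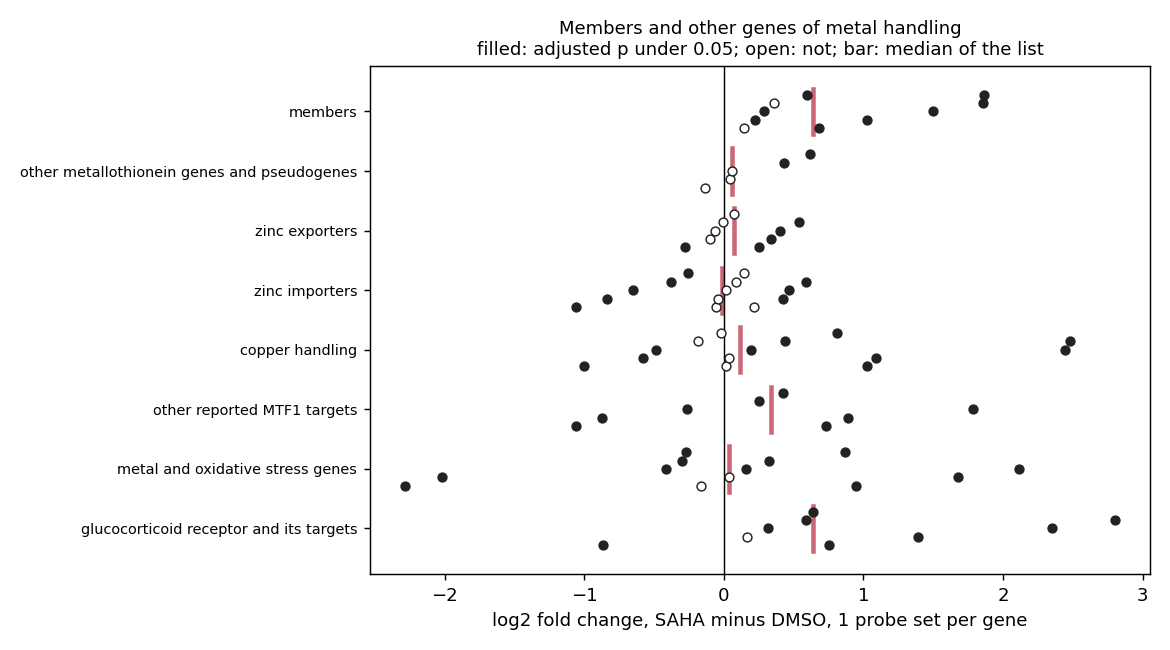
Gene-level log2 fold changes of the 10 members and of the 7 lists, 1 point per gene, filled where the adjusted p over all genes was under 0.05, with a bar at each list's median. The members lie at or above 0.15, with a median of 0.64, while zinc importers spread on both sides of 0.

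The genes whose profile over the 6 arrays was nearest to that of MT1X, by Euclidean distance of mean-centred log2 values among all genes, were GPRC5A, DGKQ, CDKN1A, PCYOX1 and H2BC5. Their distances ran from 0.07 to 0.11. GPRC5A, an orphan receptor induced by retinoic acid, rose by 1.85 ± 0.06 and PCYOX1, a prenylcysteine oxidase, by 1.87 ± 0.05. The kinase DGKQ rose by 1.82 ± 0.05, with its second brightest probe set at -0.01, and the histone gene H2BC5 by 1.89 ± 0.06. This distance mostly reads the size of the difference between groups.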

How the data were processed

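RNA of 6 MDA-MB-231 samples was measured on Affymetrix PrimeView arrays. The authors deposited 1 log2 expression value per probe set and array, made by RMA per the submitters' processing notes, with the software not given in the sources used here. RMA makes the arrays' distributions nearly equal, so a shift of most transcripts cannot be read. Gene symbols came from the platform's annotation, and all 22 member probe sets gave the same symbol through Entrez identifiers in the RefSeq table. Genome positions of probes are not analysed here.

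The test was limma's (version 3.58.1, R 4.3.3; lmFit, eBayes, no covariate), as SAHA minus DMSO over 3 and 3 arrays, two-sided, with Benjamini-Hochberg adjustment at 0.05 over all 49293 probe sets, or over 18132 genes each taken by its brightest probe set that names only it. The ± beside a log2 fold change is limma's standard error. The procedure was run on simulated data as a check of the code. That simulation had independent noise and few changed probe sets, unlike the data here, so nothing about the members is drawn from it. The number of arrays limits the precision.

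Members and lists were chosen with earlier results of these data known, and lists are given by counts and medians. In each list the 3 genes with the smallest p, and up to 2 called against most of the list, are named. Neighbours named are the nearest on each side and those called at 2-fold or more. Of 77 listed genes 70 were measured. Figures were drawn with matplotlib 3.10.9.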

Additional observations from a re-analysis of the deposited data

How the results depend on the processing

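The test was repeated with the replicate number as a block, quantile normalization once more, centring on ribosomal protein genes, poly-A spike-ins or hybridization spike-ins, limma's trend with robust moderation, weights per array, minimum mean levels of 5 and 7, no _x_at or _s_at probe sets, a threshold of 0.01, the ACTB covariate, other probe sets of a gene, and leaving out each array. Of the 15 called member probe sets, 9 kept call and direction in each alternative run on them. The called member probe sets numbered 15 with each array left out in turn, with 0 lower, where 9872 to 10500 of all 49293 were higher. Without _x_at and _s_at probe sets they numbered 7 of the 10 that remain to be tested, where 7402 of all 34921 were higher. At gene level the 8 members called became 8 to 9 with an array left out, 4 without such probe sets, 5 with the ACTB covariate and 5 with the second brightest probe set, with 0 lower. Without such probe sets MT1E, MT1F, MT1H and MT2A could not be tested, and MT1E and MT1H have no second brightest. In the main test 24.6% of all genes were called higher and 23.8% lower. Those shares in the other settings are not given for the gene-level counts of members, listed genes and neighbours. The listed genes called, 33 higher and 17 lower, were 27 to 32 and 17 to 18 with an array left out, 10 lower after centring on poly-A spike-ins and 19 higher with the second brightest probe set. The neighbours called, 7 higher and 3 lower, were 7 to 8 and 3 with an array left out, 1 lower after centring on poly-A spike-ins or with the ACTB covariate, and 3 higher with the second brightest. Pairs of metallothioneins without overlap, 6 of 7 with the 3 whose size the scale or background limits, were 6 to 7 with an array left out. Fewer genes have a second probe set; the other causes were not tested.

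Directions turned for MT1M's 11728397_at after quantile normalization (-0.042), centring on hybridization spike-ins (-0.013) and with an array left out (-0.075 to 0.063), and for SLC30A1's 11726006_at with the ACTB covariate (-0.037) and with an array left out (-0.0096 to 0.052), none of them called. With the second brightest probe set MT1IP (-0.029, also without _x_at and _s_at probe sets), SLC30A3 (-0.055), SLC30A10 (-0.22), PER1 (-0.17) and DGKQ (-0.011) turned. MT1X minus MT1F ran from -0.095 to 0.085 with an array left out.

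Centring on ribosomal protein genes or poly-A spike-ins raised the median of all probe sets by 0.14 and 0.18, and the share of calls that were higher to 64.9% and 69.4%. Of all 49293 probe sets 16373 and 14969 were then called higher, in place of 10949. In each of these settings 19 member probe sets were higher. The replicate block gave 16 member probe sets higher, MT1H being added (limma's adjusted p = 0.0467). Over all probe sets it gave 21454 calls (10255 higher) in place of 22850 (10949 higher). Deviations of same-numbered arrays correlated at -0.10, -0.08 and -0.03, so the numbers were not taken to pair the arrays.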
